A study of Mus musculus with 4 samples.

Results

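The interleukin-12 family subunits were read here through 5 probe sets of 4 genes, Il12b, Il12a, Il23a and Ebi3, among 18193 genes that the array's annotation names singly. They were taken as every probe set annotated to a single gene that is 1 of the 5 listed subunits, Il12b, Il12a, Il23a, Il27 and Ebi3. Il12b had 2 probe sets and Il12a, Il23a and Ebi3 had 1 each. No probe set names Il27, the p28 subunit of IL-27, so that subunit is not analysed here.

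The arrays compared mouse macrophages grown for 7 days from bone marrow cells with 20% conditioned medium of L cells, which secrete the macrophage growth factor M-CSF, and then held overnight without it. All cells were primed overnight with IFN-gamma at 100 U/ml, given as 16 h for the group with LPS alone, and washed. The cells of interest then received LPS (lipopolysaccharide, sensed through TLR4) at 10 ng/ml together with immune complexes (antibody bound to its antigen, sensed through Fc gamma receptors) for 2 h, a treatment the series calls type II activation (2 arrays). The other cells received LPS at 10 ng/ml alone for 2 h, which the series calls classical activation (2 arrays). Cells without LPS, cells without IFN-gamma and cells given immune complexes alone are not analysed here, so the values compare 2 stimulated states and hold no resting level. The labels give no strain, sex or age, do not say what the immune complexes were made of, and do not tell whether the 2 replicates of a group were separate cultures or mice. The p-values therefore cover only the spread between these arrays, which may be technical.

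Cytokines of this family are heterodimers that share chains. IL-12 joins the p40 chain, encoded by Il12b, to p35, encoded by Il12a, and IL-23 joins the same p40 to p19, encoded by Il23a. EBI3 pairs with p28 in IL-27 and with p35 in IL-35. The p40 and EBI3 chains resemble soluble cytokine receptors, while p35, p19 and p28 are helical cytokine chains. Macrophages and dendritic cells make IL-12 after Toll-like receptor signals, and IFN-gamma priming strengthens this. IL-12 drives T cells and NK cells to make IFN-gamma, IL-23 sustains T cells that make IL-17, and engagement of Fc gamma receptors is known to lower IL-12 output of macrophages. The series asks for genes that tell the 2 activated states apart.

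The promoters of Il12b and Ebi3 are shown because these were the 2 subunits whose signals did not overlap between the groups. Each is the RefSeq sequence (GRCm38.p6, plus strand) from 250 bases before to 50 bases after the gene's start, at chr11:44399813-44400112 for Il12b and at chr17:55952373-55952672 for Ebi3. Capitals mark matches to 5 motifs searched on both strands.
Il12b promoter: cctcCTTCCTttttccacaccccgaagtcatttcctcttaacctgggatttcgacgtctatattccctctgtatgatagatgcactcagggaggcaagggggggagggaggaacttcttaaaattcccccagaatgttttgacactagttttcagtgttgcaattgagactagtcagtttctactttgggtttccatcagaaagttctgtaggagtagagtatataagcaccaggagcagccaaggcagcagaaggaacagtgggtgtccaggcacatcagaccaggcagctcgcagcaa
Ebi3 promoter: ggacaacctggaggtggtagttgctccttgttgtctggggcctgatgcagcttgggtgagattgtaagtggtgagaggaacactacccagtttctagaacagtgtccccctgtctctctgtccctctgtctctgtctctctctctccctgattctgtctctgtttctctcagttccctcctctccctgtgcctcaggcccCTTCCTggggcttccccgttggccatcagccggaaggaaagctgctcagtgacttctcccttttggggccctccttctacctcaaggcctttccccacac
The motifs were a kB-like one (GGG, any 3 bases, then TTNC, in 14.3% of 32851 RefSeq promoters of the same length), an IRF-like one (GAAA, any 2 bases, then GAAA, 3.44%), an ETS-like one (AGGAAG, 35.4%), an AP-1-like one (TGANTCA, 7.81%) and a CEBP-like one (TTNNGNAAT, 11.5%). Each promoter held 1 match, to the ETS-like motif on the minus strand, with its leftmost base 246 bases before the start of Il12b and 50 bases before that of Ebi3. The 2 RefSeq promoters of Il12a held no match to any of the 5. A match describes the letters only. Only these exact patterns were searched, so the lack of a match does not show that a factor has no site there. The promoters of Il23a and Il27 are not shown.

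Signals were compared after log2(signal + 32) with limma over 27022 probe sets, and a probe set was called at a Benjamini-Hochberg adjusted p under 0.05. All 5 member probe sets were bright enough to enter this test. With immune complexes 1 of the 5, an Il12b probe set, was called lower and none higher. The background was 0.00740% of tested probe sets called lower (2 probe sets) and 0.0444% called higher (12). The median log2 fold change was -1.14 over the 5 and 0.07 over all tested probe sets. All 5 log2 fold changes lay below 0, against 44.1% of all tested probe sets. Of these 3, the 2 of Il12b and that of Ebi3, read lower on both arrays with immune complexes than on both arrays with LPS alone, as did 12.0% of tested probe sets. Less transcript per cell and fewer cells that make a transcript cannot be told apart in these bulk samples.

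The macrophage label was checked against its markers. All 7 listed macrophage genes (Csf1r, Adgre1, Cd68, Itgam, Lyz2, Fcgr1 and Cd14) were present, with readings of at least 729.7, and none was called. Of the 7, 5 had log2 fold changes below 0, against 45.9% of genes of all signal levels. Cd14 (-0.40 ± 0.21) and Lyz2 (-0.28 ± 0.22) read lower on both arrays with immune complexes, as Il12b and Ebi3 did by larger amounts. The same held for 13.1% of genes, and for 21.6% of tested probe sets with a mean signal of at least 1000. The summed signal of the 6 dendritic cell markers, cells that also make p40, was 1304.9 and 730.3 with immune complexes and 811.5 and 886.3 with LPS alone, and none of 5 tested was called. The readings of the 4 measured T and NK cell markers were 8.3 to 94.2. The 3 measured B cell markers summed to 391.7 and 237 with immune complexes and to 258.1 and 265.4 with LPS alone. The 5 neutrophil markers summed to 1223.4 and 1434.9 with immune complexes and to 794.9 and 785.2 with LPS alone, of which S100a8 made up 871.3 and 1137.6, against 540.8 and 504.7. The list did not move one way. S100a8 had a log2 fold change of 0.89 ± 0.39, Mpo -0.35 ± 0.74 and Camp -0.37 ± 0.82, and none of these 3 was called. S100a9 and Elane lay below the filter. The part of these cells in any result was not tested. All 4 arrays had a trimmed mean signal of 500, but low signals stood higher on the first immune complex array, whose median was 155.4 against 68.2 to 88.3 on the other 3.

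Il12b, the p40 chain of both IL-12 and IL-23, read lower with immune complexes on both of its probe sets, of which 1 was called. Probe set 1449497_at read 263.7 and 323.6 with immune complexes, against 2014.5 and 2340.3 with LPS alone. The replicates of each group lay within 1.23-fold and 1.16-fold of each other, and the groups were far apart. Its signal was 294 ± 42.4 with immune complexes and 2177 ± 230 with LPS alone (SD, n = 2 arrays each). It fell by 2.76 ± 0.39 (SE) on the log2(signal + 32) scale, a 6.80-fold difference with limma adjusted p = 0.0367 and a 95% interval from -3.60 to -1.92. Only 1 of the 27022 tested probe sets had a lower log2 fold change.

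The other Il12b probe set, 1419530_at, read 403.7 and 788.9 with immune complexes, against 1574.7 and 3789.8 with LPS alone. Here too both arrays with immune complexes were below both with LPS, but the replicates stood 1.95-fold apart with immune complexes and 2.41-fold apart with LPS. Its mean signal was 596 ± 272 with immune complexes and 2682 ± 1566 with LPS alone (SD, n = 2 arrays each). The log2 fold change was -2.05 ± 0.48 (SE), the eighth lowest of all tested probe sets, with a 95% interval from -3.10 to -1.0. Its limma adjusted p was 0.284, so this probe set was not called, and by the convention of taking a gene's brightest probe set Il12b as a gene did not pass.

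**Figure D1:**
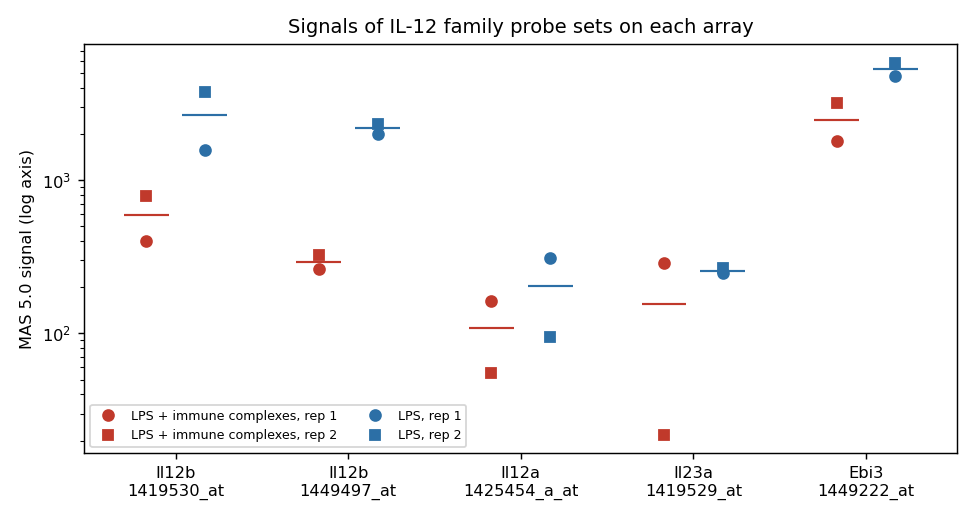
MAS 5.0 signal (log axis) of each member probe set on each array, with LPS plus immune complexes in red left of LPS in blue, circles for replicate 1, squares for replicate 2 and bars for group means. Both Il12b probe sets and Ebi3 have separate groups, Il12a and Il23a overlap, and heights are not comparable between probe sets.

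As the 4 pairings of an immune complex array with an LPS array, 1449497_at was 6.22-fold to 8.88-fold lower with immune complexes. Over the same pairings 1419530_at was 2.00-fold to 9.39-fold lower, and its smallest ratio, of immune complex replicate 2 to LPS replicate 1, fell just short of 2-fold at a log2 ratio of -0.997. So 1449497_at was the only member at least 2-fold lower in all 4 pairs, against 0.326% of tested probe sets. Position within the array, the share of all 45037 probe sets that read lower, does not depend on an array's scaling. For 1449497_at it was 64.8% and 73.7% with immune complexes, against 91.5% and 92.3% with LPS alone. For 1419530_at it was 74.2% and 83.3% with immune complexes, against 89.9% and 95% with LPS alone.

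The 2 Il12b probe sets were set against each other as their log2 difference on each array. That difference (1449497_at minus 1419530_at) was -0.56 and -1.21 with immune complexes and 0.35 and -0.69 with LPS alone. The groups overlapped. The probe sets' log2 fold changes differed by -0.71 ± 0.61 (SE, n = 2 arrays each), with an exact two-sided permutation p = 0.667, where 2 arrays against 2 cannot go below 0.333. Without immune complex replicate 1 the log2 fold change of 1449497_at was -2.63, and without immune complex replicate 2 it was -2.90. The call of 1449497_at ended with quantile normalization (log2 fold change -2.92, limma adjusted p = 0.188). Conversely 1419530_at passed with median centring (-2.25, limma adjusted p = 0.0261) and without a filter on dim probe sets (-2.05, adjusted p = 0.0268). With median centring its SE was 0.55, against 0.48 as reported, so the smaller adjusted p did not come from a smaller spread of this probe set. Without LPS replicate 1 its log2 fold change was -2.68.

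**Figure D2:**
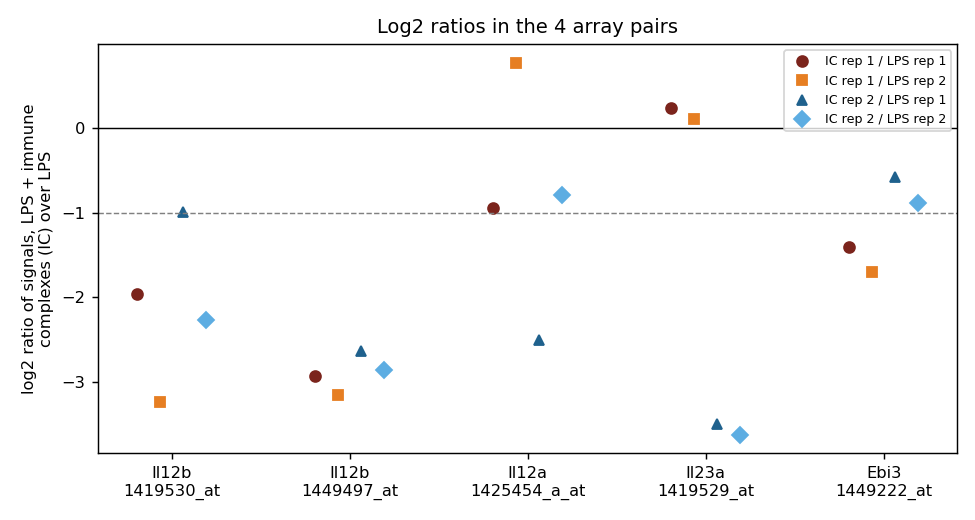
Log2 ratio of the deposited signals, LPS plus immune complexes over LPS, for each of the 4 array pairs and each member probe set, with a dashed line at a 2-fold decrease. The 4 ratios of Il12b 1449497_at lie together between -3.15 and -2.64, while those of Il23a split by the immune complex array, 0.23 and 0.11 for replicate 1 and -3.50 and -3.62 for replicate 2.

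Il12a, the p35 chain of IL-12 and IL-35, was dim and varied as much within the groups as between them. It read 161.9 and 54.8 with immune complexes, against 310.9 and 94.9 with LPS alone. The groups overlapped, since the first immune complex array read above the second LPS array. The log2 fold change was -0.69 ± 0.68 (SE) with limma adjusted p = 1, and its 95% interval ran from -2.17 to 0.80. Replicate 1 read higher than replicate 2 in both groups, 2.95-fold with immune complexes and 3.28-fold with LPS alone. Between arrays of the same number the log2(signal + 32) difference was -0.82 for replicate 1 and -0.55 for replicate 2. Without LPS replicate 1 the log2 fold change was 0.03. The probe set's name ends in _a_at, which on these arrays marks probes shared by alternative transcripts of 1 gene.

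Il23a, the p19 chain of IL-23, gave readings that disagreed between the immune complex arrays. It read 289.5 and 21.8 with immune complexes, against 246.2 and 268.6 with LPS alone. The LPS readings were within 1.09-fold of each other, while those with immune complexes were 13.3-fold apart and lay on either side of them. Its position within the array was 67.2% and 27.4% with immune complexes and 70.5% and 71.4% with LPS alone. The log2 fold change of -1.14 ± 0.74 (SE, limma adjusted p = 1, 95% interval -2.74 to 0.47) was an average of 0.21 between arrays of replicate 1 and -2.48 between arrays of replicate 2. Without immune complex replicate 2 it was 0.15 and without immune complex replicate 1 it was -2.43, so neither its size nor its direction held between the 2 arrays.

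Ebi3, the receptor-like chain of IL-27 and IL-35, read 1797.2 and 3173.3 with immune complexes, against 4758.6 and 5853.4 with LPS alone. Both immune complex arrays were below both LPS arrays, though by different amounts. Its mean signal was 2485 ± 973 with immune complexes and 5306 ± 774 with LPS alone (SD, n = 2 arrays each). The log2 fold change was -1.13 ± 0.36 (SE), a 2.19-fold difference, with a 95% interval from -1.91 to -0.36. The limma adjusted p was 0.880 and the unadjusted p 0.00801, so Ebi3 was not called, and 0.629% of tested probe sets had as low a log2 fold change. In the 4 array pairs it was 1.5-fold to 3.26-fold lower with immune complexes, at least 2-fold in 2 of the 4. Its position within the array was 91.4% and 94.1% with immune complexes, against 95.9% and 96.7% with LPS alone. Among tested probe sets with a mean signal of at least 1000, which include both Il12b probe sets and Ebi3, 21.6% had both immune complex arrays below both LPS arrays and 0.347% were at least 2-fold lower in all 4 pairs.

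**Figure D3:**
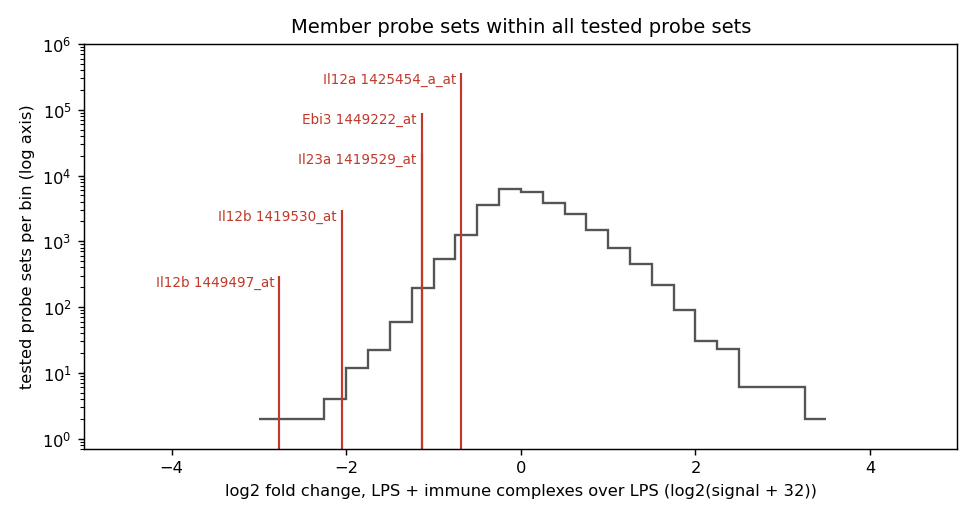
Number of tested probe sets (log axis) in bins of log2 fold change, LPS plus immune complexes over LPS, with red lines at the 5 member probe sets. The members lie at -2.76, -2.05, -1.14, -1.13 and -0.69, and the median of all 27022 tested probe sets is 0.07.

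Whether the chains of 1 cytokine moved by the same factor was asked from the per-array log2 difference of their brightest probe sets. For IL-12, Il12b minus Il12a was 1.17 and 3.24 with immune complexes and 2.23 and 4.91 with LPS alone, so that the log2 fold change of Il12b was lower by 1.37 ± 1.70 (SE, n = 2 arrays each; exact two-sided permutation p = 0.667). For IL-23, Il12b minus Il23a was 0.44 and 3.93 with immune complexes and 2.53 and 3.67 with LPS alone (difference -0.91 ± 1.84, exact permutation p = 1). For IL-35, Ebi3 minus Il12a was 3.24 and 5.21 with immune complexes and 3.80 and 5.54 with LPS alone (difference -0.45 ± 1.31, exact permutation p = 0.667). With these probe sets, 1419530_at for Il12b, the groups overlapped in all 3, and the smallest p that 2 arrays against 2 allow is 0.333. The values of these probe sets therefore show neither unequal nor equal change of the chains. Between arrays of the same number the IL-12 difference was -1.06 for replicate 1 and -1.67 for replicate 2. Leaving out single arrays turned the IL-23 difference to 0.83 (without immune complex replicate 1) and the IL-35 difference to 0.54 (without immune complex replicate 1) and 0.42 (without LPS replicate 2). The IL-27 pair was not compared.

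**Figure D4:**
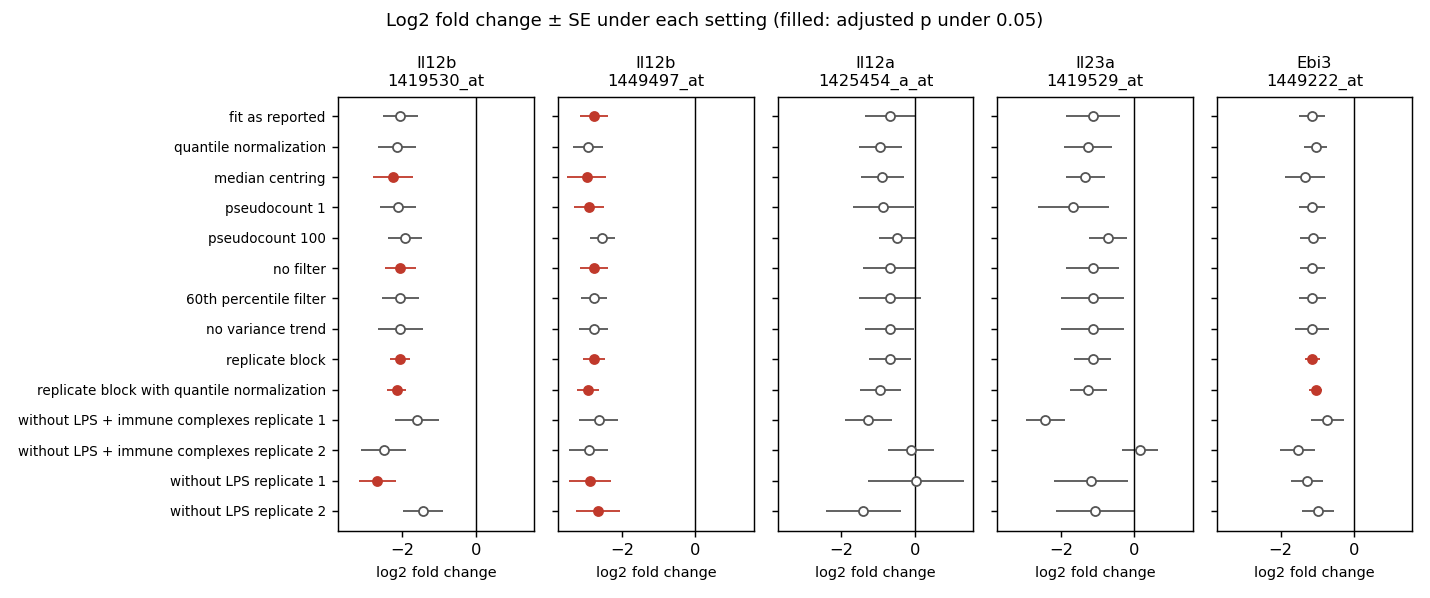
Log2 fold change ± SE, LPS plus immune complexes over LPS, of each member probe set in the reported limma fit and under 13 other settings, with filled red points where adjusted p was under 0.05. Il12b 1449497_at stays between -2.96 and -2.53 but gains and loses its call, and only Il12a and Il23a cross 0, each without 1 array.

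The other genes of the pathway were described by lists of its receptors, signalling genes and regulators, each gene by its brightest tested probe set. By limma, 0 of the 29 tested were called in either direction, while 0.0621% of 12891 genes were called higher and 0.00% lower. At an unadjusted limma p under 0.05, Il6st, Il10 and Atf3 were higher and Irf8 was lower, against 1.99% of genes higher and 1.14% lower. Over these genes 13.2% had both immune complex arrays above both LPS arrays and 13.1% had both below.

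Of 5 receptor genes 3 were tested, with a median log2 fold change of 0.26, against 0.05 over all genes. Il6st, which encodes gp130, a signalling chain of the IL-27 receptor, read 1079.6 and 1505.8 with immune complexes, against 504.9 and 693.1 with LPS alone. Both immune complex arrays were higher. Its log2 fold change was 1.07 ± 0.40 (SE, limma adjusted p = 1), and its other 2 tested probe sets had 1.35 and 0.88. Il12rb1, the receptor chain that binds p40, had 0.00 ± 0.44, and Il12rb2, its partner for IL-12, had 0.26 ± 0.60. Il27ra, the specific chain of the IL-27 receptor, lay below the filter, with readings of 130.4 and 60.4 with immune complexes and 30 and 36 with LPS alone.

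Of 8 signalling and output genes 4 were tested, with a median of -0.20 and none called. Jak2, a kinase bound to the IL-12 and IL-23 receptors, read 5070.3 and 8661.5 with immune complexes, against 9934.7 and 10203.2 with LPS alone, a log2 fold change of -0.60 ± 0.31 (SE, limma adjusted p = 1). The second Jak2 probe set had -0.48. The partner kinase Tyk2 had -0.17 ± 0.39, with its second probe set at -0.75. Stat3, a transcription factor downstream of IL-23 and IL-27, had -0.22 ± 0.26, with its other probe sets at -0.245, 0.269 and -0.204. Jak1 had 0.04 ± 0.29, with others at -0.041 and 0.155. The genes that IL-12 acts on in T and NK cells were dim on all arrays. Ifng read 60.5 and 13.9 with immune complexes and 10.9 and 3.5 with LPS alone, and Stat4 and Tbx21 had no reading above 100.4 and 37.5.

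Of 9 transcription factors that activate subunit genes 8 were tested, 7 with log2 fold changes below 0, against 45.9% of all genes, and a median of -0.25, none called. All 8 were bright, with no reading below 602.2, whereas the 45.9% covers genes of all signal levels. No such share was taken for bright genes alone. Irf8, an interferon regulatory factor that acts on the Il12b promoter, read 8089.4 and 12960.5 with immune complexes, against 15783.5 and 17641 with LPS alone. Both immune complex arrays were lower, as was so for Spi1 (the myeloid factor PU.1) and Irf3, 3 of the 8 against 13.1% of genes. Among tested probe sets with a mean signal of at least 1000, which include Irf8 and Spi1, that share was 21.6%. Irf1 (-0.02 ± 0.24) and Rel (-0.06 ± 0.41), also counted below 0, barely differed. The log2 fold change of Irf8 was -0.70 ± 0.29 (SE, limma adjusted p = 1), and its second probe set had -0.76. Spi1 had -0.53 ± 0.30, Rela, an NF-kB subunit, -0.44 ± 0.30, and Irf3 -0.39 ± 0.40, with the 3 other tested Irf3 probe sets at -0.70, -0.02 and 1.58.

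All 11 factors that restrain the subunits were tested, 4 with log2 fold changes below 0, against 45.9% of all genes, and a median of 0.21, none called. Both immune complex arrays were higher for 3 (Il10, Atf3 and Zfp36), against 13.2% of genes. Both were lower for 2, Nfil3 (-0.32 ± 0.29) and Rbpj (-0.36 ± 0.31), against 13.1%. Il10, the cytokine that lowers Il12b in macrophages, read 12288.3 and 13346.9 with immune complexes, against 5474.4 and 3904.7 with LPS alone, and was the only one of the 11 that was higher by 2-fold or more in every array pair, as were 1.28% of genes. Its log2 fold change was 1.46 ± 0.29 (SE, limma adjusted p = 0.164). Hes1, a repressor of the Notch pathway, had 1.2 ± 0.86, with readings of 286.7 and 65.5 with immune complexes and 84.6 and 18.6 with LPS alone, which overlapped. Bcl3, an atypical IkB protein, had -0.85 ± 0.46, and Atf3, a repressor that limits Toll-like receptor responses, 0.60 ± 0.24 with both immune complex arrays higher. Of the 4 partners and relatives 3 were tested, and Il6, a helical cytokine related to p35, had -0.33 ± 0.51, Clcf1, a cytokine of the same class, 0.26 ± 0.38, and Cd5l, a secreted protein that can bind p40, -0.22 ± 0.38.

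**Figure D5:**
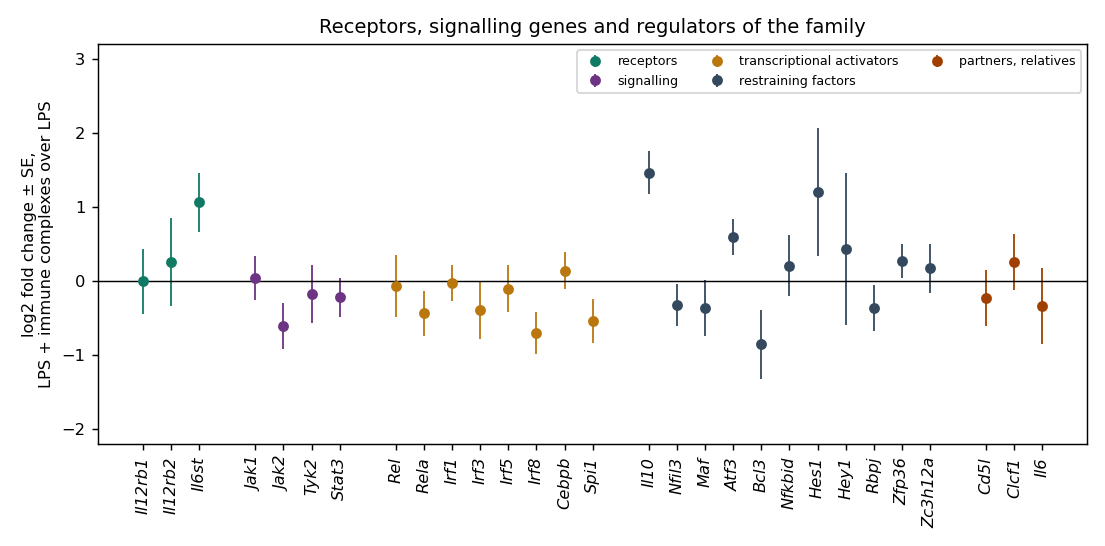
Log2 fold change ± SE (limma), LPS plus immune complexes over LPS, of the tested receptors, signalling genes, regulators and relatives of the family, each by its brightest tested probe set. Il10 stands highest at 1.46 and Bcl3 lowest at -0.85, and none had an adjusted p under 0.05.

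The genes whose pattern over the 4 arrays was most like that of Il12b were found by the Euclidean distance between log2(signal + 32) values centred on each gene's mean. The nearest to Il12b 1419530_at among 12890 other genes were Rcsd1, Icosl, Ccnd2, Apbb3 and Stard7, at distances of 0.63 to 0.83, against a median of 2.47. Icosl, the ligand of the T cell costimulatory receptor ICOS, read 743.3 and 1479.5 with immune complexes, against 2783.6 and 4004.1 with LPS alone. Ccnd2, cyclin D2, read 1350.3 and 3982.9 with immune complexes, against 8403.6 and 11203.5 with LPS alone. In all 5 the lowest reading was the first immune complex array and the highest the second LPS array, as in Il12b. Ebi3 was 25th in that order, at a distance of 1.14. Il23a and Il12a were 8414th and 8451st, at 2.75 and 2.76, farther than that median. The nearest to Ebi3 were Hmgb2, Zfp760, Nupr1, Ypel2 and Swap70, at 0.05 to 0.19, against a median of 1.51. Of these, Zfp760 (26.1 to 146.2 over the arrays) and Ypel2 (30.7 to 155.3) were dim, where the added 32 shrinks the differences. Counted from Ebi3, Il12b was only 3344th at the same distance of 1.14, and Il12a and Il23a were 8824th and 10782nd. Nupr1, a stress-induced chromatin protein, read 6962.5 and 13126.3 with immune complexes, against 20220.1 and 22796.6 with LPS alone. Likeness over 4 arrays is a description, and none of the 10 nearest genes was called (limma adjusted p from 0.150 to 1).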

How the data were processed

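Biotin-labelled total RNA of the 4 macrophage samples was read on a mouse Affymetrix array. The deposited values are intensities, 1 linear MAS 5.0 signal per probe set and array, per the submitters' processing notes. MAS 5.0 scales each array as a whole, which equalises means but not low signals, so values of dim probe sets are uncertain. No detection calls were used. Genes came from GEO's platform annotation (34945 probe sets with 1 gene, 932 with several, 9160 with none).

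The 64 controls and probe sets with a mean signal under the 40th percentile (69.7) were left out. Differences on the log2(signal + 32) scale, which understates those of dim probe sets, were tested in limma 3.58.1 (R 4.3.3; lmFit, eBayes with a variance trend, two-sided, no block), checked on simulated data. Every adjusted p is from a fit over all tested probe sets. Ratios within array pairs use the deposited signals. Members and lists were chosen with earlier results of these data known. The rule named every member, up to 4 genes per list by size, and 5 nearest genes each for Il12b and Ebi3. Groups and replicate numbers came from the titles. The alternatives were other normalizations, pseudocounts, filters and variance models, a replicate block, and leaving out each array.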

Additional observations from a re-analysis of the deposited data

How the results depend on the processing

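Il12b 1449497_at stayed below 0 under all 13 alternatives and was called under 7. It lost its call with quantile normalization (log2 fold change -2.92, adjusted p = 0.188), a pseudocount of 100 (-2.53, 0.0591), the 60th percentile as filter (-2.76, 0.0504) and no variance trend (-2.76, adjusted p = 1). Without each array in turn it was -2.90 to -2.63. Il12b 1419530_at also stayed below 0 and was called with median centring (-2.25) and without a filter (-2.05), the range without each array being -2.68 to -1.43. Ebi3 stayed below 0, at -1.54 to -0.73 without each array. Il12a (-1.40 to 0.032) and Il23a (-2.43 to 0.153) crossed 0 when 1 array was left out, Il12a without LPS replicate 1 and Il23a without LPS_IC replicate 2. A group left with 1 array has no spread of its own, so fits without 1 array are given for their sizes. Such fits are among the 7 that called 1449497_at, and their calls are not read as support. Without each array in turn, the difference of log2 fold changes between chains was -2.71 to -0.02 for IL-12, -2.66 to 0.83 for IL-23 and -1.43 to 0.54 for IL-35, and that between the Il12b probe sets -1.23 to -0.20. The other alternatives kept these differences below 0.

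With the replicate number as a block, Il12b 1419530_at (-2.05) and Ebi3 (-1.13, limma adjusted p = 1.31e-05) were called besides Il12b 1449497_at, in a fit that called 2.48% of all tested probe sets, and likewise with the block and quantile normalization (-2.15 and -1.05). The labels do not say that a number pairs the arrays. The correlation of the replicates' differences between the groups was 0.38, and with 2 pairs this settles nothing. Of the 29 pathway genes the block called 3 higher (Il6st, Il10 and Atf3) and 3 lower (Jak2, Irf8 and Bcl3), against 1.74% and 1.3% of all genes in that fit. Both blocked fits had infinite prior degrees of freedom, so each probe set was given the fitted trend as its spread. With the block alone the SEs of the member probe sets ran from 0.212 (Ebi3) to 0.576 (Il12a). Near-equal spreads were seen with median centring, where these SEs ran only from 0.536 to 0.584, against 0.356 to 0.735 as reported. Whether the calls of both Il12b probe sets with median centring rest on these near-equal spreads was not tested.

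The counts of probe sets called higher and lower, 12 and 2 as reported, were 0 and 0 with quantile normalization and without a variance trend, 33 and 14 with median centring, 6 and 0 with a pseudocount of 100, 68 and 21 without a filter, 4 and 0 with the 60th percentile filter, 404 and 267 with the replicate block, 537 and 366 with the block and quantile normalization, and 32 and 5 at adjusted p under 0.1. A pseudocount of 1 gave 20 higher. Without each array they were 0 to 77 and 0 to 32, with 0 of either without either LPS_IC array, 74 and 23 when LPS replicate 1 was left out and 77 and 32 when LPS replicate 2 was. At an unadjusted limma p under 0.05, 503 were higher and 256 lower. At least 2-fold apart in all 4 array pairs were 344 higher and 88 lower, against 109 and 12 at 3-fold, 1498 and 178 without a filter, and 204 higher with quantile normalization. Median centring moved the median log2 fold change of all probe sets from 0.07 to -0.13. The cause of these changes was not tested. Only 2 arrays a group limit the precision, and Il12a and Il23a are dim.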
